A study of Mus musculus with 34 samples.

Results

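The comparison of MGT with LacZ at day 14 set 2 arrays of MGT cells against 2 arrays of LacZ cells, taken by their labels from the 34 arrays of the series. MGT cells were mouse cardiac fibroblasts (CFs) that had received a retrovirus carrying Mef2c, Gata4 and Tbx5 on 1 transcript, and LacZ cells were fibroblasts that had received LacZ instead. Both groups came from CD1 mice with an aMHC-GFP genotype, and the fibroblasts were isolated from pups at postnatal day 1.5. No sorting of cells is mentioned in the labels, so each RNA sample is a mixture of whatever cells were in the dish at day 14. Fewer cells of a type and less RNA per cell cannot be told apart in such samples. Nothing in the labels says whether the 2 arrays of a group came from separate cultures, so the spread between them may be technical. The p-values rest on that spread pooled over all 17 groups of the series, not on the day 14 samples alone.

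Direct reprogramming turns a fibroblast towards a cardiomyocyte without passing through a stem cell. Mef2c, Gata4 and Tbx5 are DNA-binding factors that switch on heart genes in the embryo. A working cardiomyocyte needs the sarcomere, in which myosin thick filaments pull on actin thin filaments anchored at Z-discs. It also needs the machinery that releases and retrieves calcium at each beat, junctions and channels that spread the impulse, and mitochondria that burn fatty acids.

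The 2 MGT arrays had 42078 and 40860 of 59305 spots well above background, against 32749 and 28715 on the LacZ arrays. The 75th percentile of intensity was 1808 and 1926 on the MGT arrays, against 1597 and 729 on the LacZ arrays, so LacZ replicate 2 was the dimmest. The MGT arrays lay on 1 slide and the LacZ arrays on another, scanned on the same day, so at day 14 the slide cannot be told apart from the treatment. At day 10 the same 2 treatments shared 1 slide, and its values are given beside those of day 14 where they bear on a result. Gene by gene, the 2 MGT arrays differed at least 2-fold for 550 genes and the 2 LacZ arrays for 2523 genes. In LacZ cells all 20 fibroblast identity genes tested were above background on both arrays. Of the genes that define cardiomyocytes, Tnni3, Actn2, Ttn, Ryr2 and Pln were above background on neither LacZ array, whereas Myh6, Actc1 and Tnnt2 were above background on both.

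Below, a level is the log2 intensity of a gene's probe minus the 75th percentile of its array, and a change is the mean level in MGT cells minus that in LacZ cells. Changes carry their standard error, and n is 2 arrays a group throughout. A gene was called when the Benjamini-Hochberg adjusted p of the limma fit was under 0.05 and the change at least 2-fold. Rises of genes that neither LacZ array measured above background are given as lower bounds ("at least"). Where only 1 LacZ array measured a gene above background, the fitted change is given without a bound. Levels of different genes are not comparable, because each probe has its own response.

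At day 14, 1153 genes were higher and 1369 lower in MGT cells than in LacZ cells, of 19410 tested (13% called, 5.94% higher and 7.05% lower). Every one of the 1153 higher genes was well above background on both MGT arrays, and 392 of them were above background on no LacZ array. The lower calls were less well measured. Only 768 of the 1369 (3.96% of the genes tested) were above background on both LacZ arrays, and 473 were above background on none of the 4 arrays. By fitted change the rises were also the larger: 163 genes rose at least 16-fold, while 13 genes above background on both LacZ arrays fell by that much. Both counts include genes that the dim side did not measure above background, for which the lower bound can be under 16-fold. Pln, for example, had a fitted rise of 40.4-fold and a lower bound of 10.1-fold. The split depended on the scaling of the arrays. Quantile normalization called 1341 genes higher and 758 lower (6.91% and 3.91%). Taking the percentile over probes detected on all arrays called 1262 and 1124 (6.5% and 5.79%). The normexp background correction called 864 and 627 (4.45% and 3.23%), and the authors' log2 values gave 1132 and 770 (5.83% and 3.97%). Of the calls, 774 higher and 452 lower held under all 4 of these. The median change of all genes was -0.11 as scaled here and -0.004 after quantile normalization. None of 10 control genes was called in any scaling, but as scaled here their median change was -0.355, with 1 of 10 positive. That median was -0.266 with the percentile over detected probes, 0.035 after quantile normalization, 0.052 with normexp and 0.006 with the authors' values. List medians below are to be read beside this shift.

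**Figure D1:**
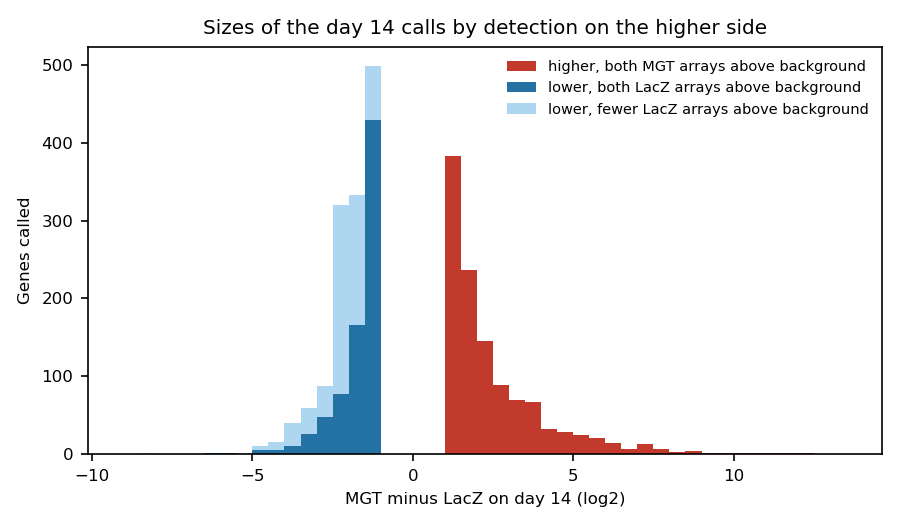
Number of genes called at day 14 (vertical axis) by size of the change, MGT minus LacZ on the log2 scale (horizontal axis, bins of 0.5 wide). Red bars are the 1153 higher genes, dark blue the 768 lower genes above background on both LacZ arrays, and pale blue the other 601 lower genes, most of which fell by less than 3 on this scale.

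The delivered factors were looked at first. Mef2c stood at 0.31 and 0.20 in MGT cells, against -2.07 and -1.98 in LacZ cells, a change of 2.28 ± 0.46 (limma adjusted p = 0.0012). The call was lost with array weights (limma adjusted p = 0.065) and in a test against a 2-fold change (limma adjusted p = 0.14). Its excess was far larger early on, at 6.78 on day 3, 4.52 on day 5, 3.85 on day 7 and 3.60 on day 10. Gata4 had levels of 3.08 and 3.03 in MGT cells, against 2.66 and 2.67 in LacZ cells, and was not called (0.39 ± 0.17, limma adjusted p = 0.10). Tbx5 had levels of -1.43 and -1.55 in MGT cells, against -0.71 and -1.09 in LacZ cells, and was not called either (-0.59 ± 0.32, limma adjusted p = 0.21). Each factor had 1 probe on the array. Whether that probe lies in the part of the transcript that the virus carries is not known from the sources used here, so it checks the delivered copy only where it is high.

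Most sarcomere genes rose. Of 46 genes tested in the 3 sarcomere lists, 31 rose, 1 was called lower and 14 were not called, with a median change of 3.86 against -0.11 over all genes. Of the 31 risers, 30 were also called under all 4 other scalings. The 31 included 11 that were above background on no LacZ array and 15 that were above background on both.

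In the thick filament, 8 of 10 genes tested rose and none fell, with a median change of 5.52. The median was 4.47 with normexp and 5.61 after quantile normalization, and both LacZ arrays measured 5 of the 10 above background. Myl7, the atrial regulatory myosin light chain, had levels of 7.17 and 7.09 in MGT cells, against -3.81 and -4.20 in LacZ cells, a change of 11.13 ± 0.46 (limma adjusted p = 9.5e-13). Myh6, the fast alpha myosin heavy chain whose promoter drives the GFP reporter, had levels of 7.51 and 7.35 in MGT cells, against -2.83 and -3.25 in LacZ cells (10.47 ± 0.27, limma adjusted p = 2.0e-15). That is its brightest probe, and its 2 kept probes had changes of 6.51 and 10.47. Its slow partner Myh7 had -0.02 and -0.21 in MGT cells, against -3.69 and -3.78 in LacZ cells (3.62 ± 0.61). The pairs of replicates lay far apart for all of these. Myl7 and Myh7 were above background on only 1 LacZ array, on which their fitted changes rest. Myh7b, another striated muscle myosin, was at least 62.7-fold higher, and Myl4, the atrial essential light chain, rose by 5.67 ± 0.16. The myosin-binding protein Mybpc3 rose by 5.38 ± 0.32. The ventricular light chains were the exceptions. Myl2 had levels of -2.38 and -2.25 in MGT cells, against -2.58 and -1.99 in LacZ cells (-0.03 ± 0.49, limma adjusted p = 0.98). Myl3 had -3.89 and -3.63 in MGT cells, against -3.67 and -3.29 in LacZ cells (-0.28 ± 0.54, limma adjusted p = 0.78). For both the 2 groups overlapped, whereas their mean levels in newborn cardiomyocytes were 8.72 and 9.10.

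In the thin filament, 8 of 13 genes rose and none fell, with a median change of 4.32. The median was 3.09 with normexp and 4.33 after quantile normalization, and both LacZ arrays measured 9 of the 13 above background. Actc1, cardiac alpha actin, had levels of 8.53 and 8.46 in MGT cells, against -2.20 and -2.38 in LacZ cells (10.78 ± 0.25, limma adjusted p = 3.4e-16). Tnni3, the adult cardiac inhibitory troponin, was at least 334-fold higher, with levels of 3.93 and 3.88 in MGT cells, against -5.06 and -4.78 in LacZ cells. The fetal form Tnni1 was at least 14.97-fold higher. Tnnt2, which ties troponin to tropomyosin, was already above background in LacZ cells, at 3.84 and 4.01, and stood at 8.26 and 8.22 in MGT cells (4.32 ± 0.31). Tnnc1, the calcium sensor, rose by 5.84 ± 0.41 and Lmod2, which lengthens thin filaments, at least 19.4-fold. Tpm1, the main cardiac tropomyosin, rose by 5.34 ± 0.35 on its brightest probe, but its 5 kept probes ran from -0.81 to 5.34. Skeletal actin Acta1 (0.70 ± 0.37, limma adjusted p = 0.19) and Tmod1 (1.77 ± 1.11, limma adjusted p = 0.29) did not pass the test.

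At the Z-disc, titin and M-band, 15 of 23 genes rose. Ttn, the giant spring of the sarcomere, had levels of 3.28 and 2.91 in MGT cells, against -7.00 and -5.53 in LacZ cells, a rise of at least 191-fold. The fitted changes of its 4 kept probes ran from 5.27 to 9.36. Actn2, which crosslinks actin at the Z-disc, had 1.88 and 1.82 in MGT cells, against -7.01 and -5.66 in LacZ cells, a rise of at least 80.5-fold. Csrp3, a Z-disc stretch-sensing protein, was at least 213-fold higher. Myom2, of the M-band, had 6.88 and 6.84 in MGT cells, against -2.70 and -4.40 in LacZ cells (10.41 ± 0.49). Tcap, the titin cap, rose by 8.15 ± 0.32 and Des, the muscle intermediate filament, by 5.14 ± 0.51. Myom2 and Tcap were above background on only 1 LacZ array. Ankrd1, a stress-responsive titin partner that LacZ cells already had at 5.80 and 6.02, stood at 7.74 and 7.65 in MGT cells (1.78 ± 0.34). The 1 gene called lower was Myom3 (-1.16 ± 0.36, limma adjusted p = 0.025), which was above background on neither LacZ array. Smpx was at least 247-fold higher on its brightest probe, but its other probe differed by -0.57.

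**Figure D2:**
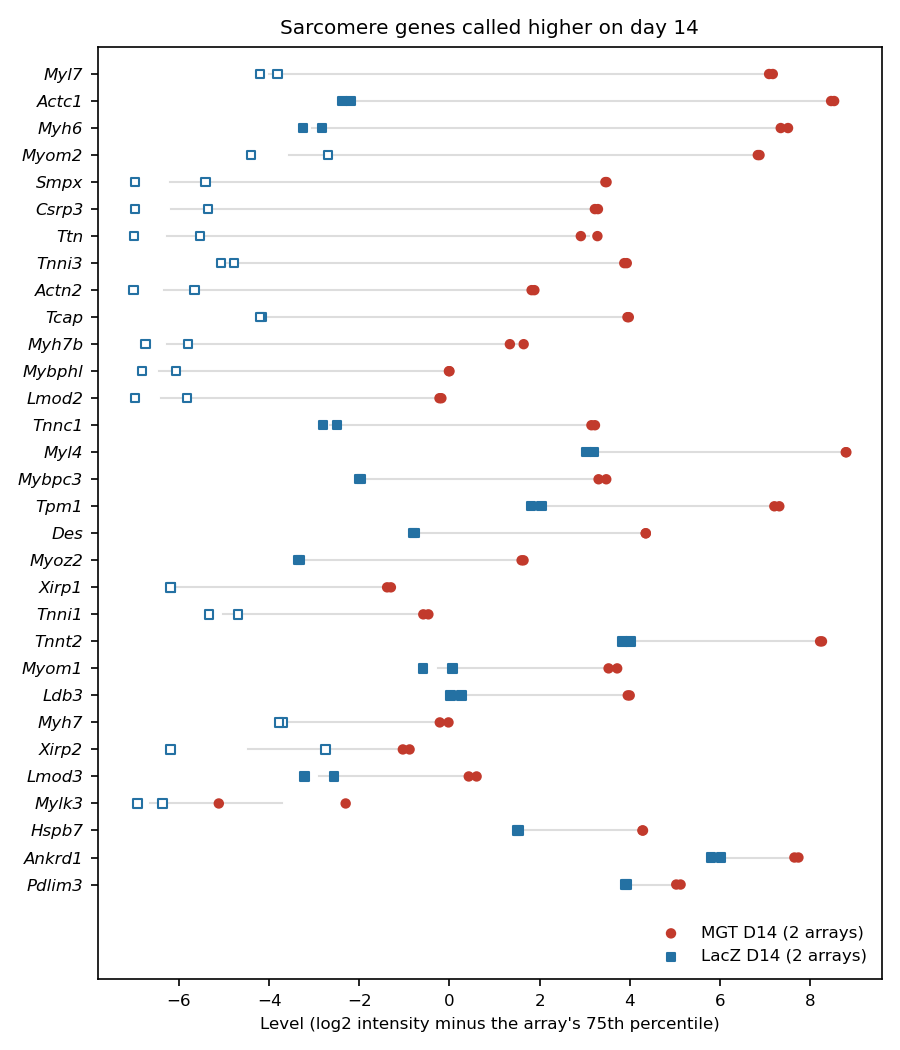
Levels (log2 intensity minus the 75th percentile of the array, horizontal axis) of the 31 sarcomere genes called higher at day 14, sorted by change. Red circles are the 2 MGT arrays and blue squares the 2 LacZ arrays, joined from mean to mean by a grey line, and open symbols mark groups in which fewer than both arrays were above background. In each of the 31 genes, both MGT arrays lie above both LacZ arrays.

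The promoters of 4 strongly risen genes of these lists are shown because the delivered proteins bind DNA. They come from RefSeq (GRCm38.p6), run from 250 bases before the gene start to 50 after it, and are written 5′ to 3′ on the strand of the gene. Capitals mark the GATA motif, AGATAA or TGATAA, and no other motif searched was found in the 4.
Myl7: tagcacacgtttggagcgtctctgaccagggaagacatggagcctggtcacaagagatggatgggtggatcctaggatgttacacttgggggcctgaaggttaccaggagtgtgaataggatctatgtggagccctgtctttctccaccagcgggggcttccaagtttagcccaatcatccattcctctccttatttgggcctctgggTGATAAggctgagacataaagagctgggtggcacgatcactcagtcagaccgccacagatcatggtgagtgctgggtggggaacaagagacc
Actc1: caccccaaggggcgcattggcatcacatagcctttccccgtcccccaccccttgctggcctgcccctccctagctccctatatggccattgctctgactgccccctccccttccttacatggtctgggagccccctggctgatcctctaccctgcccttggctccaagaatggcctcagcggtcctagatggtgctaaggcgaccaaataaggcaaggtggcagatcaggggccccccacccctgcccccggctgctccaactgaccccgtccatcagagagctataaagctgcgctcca
Myh6: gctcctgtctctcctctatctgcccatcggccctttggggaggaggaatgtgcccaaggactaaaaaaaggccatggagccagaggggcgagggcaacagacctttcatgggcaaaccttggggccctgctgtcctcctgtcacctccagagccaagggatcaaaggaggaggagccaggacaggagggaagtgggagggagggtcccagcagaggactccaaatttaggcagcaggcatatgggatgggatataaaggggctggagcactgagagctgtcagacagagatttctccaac
Smpx: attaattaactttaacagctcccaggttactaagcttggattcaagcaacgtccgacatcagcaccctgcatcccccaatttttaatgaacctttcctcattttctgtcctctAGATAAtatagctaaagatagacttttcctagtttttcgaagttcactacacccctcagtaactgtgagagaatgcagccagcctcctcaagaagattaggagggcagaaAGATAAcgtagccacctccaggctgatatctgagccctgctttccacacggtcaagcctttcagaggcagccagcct
The Myl7 window is at chr11:5898733-5899032 on the minus strand, Actc1 at chr2:114052826-114053125 on the minus strand, Myh6 at chr14:54966558-54966857 on the minus strand and Smpx at chrX:157698723-157699022 on the plus strand. The search covered both strands for the MEF2 consensus, the GATA motif and the T-box motif AGGTGT, and overlaps between motifs were allowed. Myl7 holds 1 GATA match and Smpx 2. Among promoters of the same length for 14784 tested genes, 2.19% held the MEF2 consensus, 12.97% the GATA motif and 12.1% the T-box motif. Among 859 genes called higher the shares were 5.59%, 15.02% and 14.0%. Among the 118 with a fitted rise of at least 16-fold they were 11.9%, 15.3% and 13.6%. Among the 27 risen sarcomere genes with a promoter they were 14.8%, 33.3% and 11.1%, which is 4, 9 and 3 promoters. Among 523 lower genes above background on both LacZ arrays the shares were 2.68%, 13.6% and 11.5%. A match is a description of these letters, and none of these shares was tested.

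Set beside newborn cardiomyocytes (neoCM, 2 arrays on other slides and another scan day), 9 of the 31 risen sarcomere genes had a mean level within 2-fold in MGT cells, 20 were at least 2-fold lower and 2 at least 2-fold higher. The median difference, MGT at day 14 minus neoCM, was -1.49, with a range from -8.46 to 1.32. Myl7 (7.13 in MGT cells and 7.73 in neoCM) and Tnnt2 (8.24 and 8.33) were close, while Myh7 (-0.12 and 8.34) was far lower. These are differences of means across slides and were not tested. Of all 1153 higher genes, 703 (61.0%) had a neoCM level at least 2-fold above that of uninfected fibroblasts at day 0, against 23.7% of all genes tested. Among the lower genes the share was 28.6%. Another 135 of the higher genes had a neoCM level at least 2-fold below that of the day 0 fibroblasts. The neoCM and day 0 arrays also lay on different slides, and these shares were not tested.

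Calcium handling rose next to the sarcomere. Of 19 calcium cycling genes tested 12 rose and none fell, with a median change of 2.39. The median was 1.09 with normexp and 2.64 after quantile normalization. Both LacZ arrays measured 13 of the 19 above background. Sln, an inhibitor of the calcium pump of the sarcoplasmic reticulum, was among the largest rises, with a fitted value that rests on 1 LacZ array above background. Its levels were 8.11 and 8.06 in MGT cells, against -3.63 and -4.70 in LacZ cells (12.25 ± 0.55, limma adjusted p = 4.5e-12). Casq2, which stores calcium, had 5.30 and 5.16 in MGT cells, against -2.24 and -2.16 in LacZ cells (7.43 ± 0.21). Ryr2, the release channel, was at least 51.0-fold higher and its anchor Trdn rose by 6.12 ± 0.58 on its brightest probe. The 3 kept probes of Trdn ran from 1.92 to 6.12. Pln, the second brake on the pump, was at least 10.1-fold higher, and Atp2a2, the pump itself, rose by 3.25 ± 0.54. Cacna1c, the L-type channel pore, rose by 2.72 ± 0.29. The sodium-calcium exchanger Slc8a1 was not called (1.12 ± 0.47, limma adjusted p = 0.096). Its rise was called with the percentile over probes detected on all arrays (1.21, limma adjusted p = 0.043). It was also called with array weights and with only the arrays compared, but not under quantile normalization, normexp or the authors' values.

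Of 23 ion channel and connexin genes, 8 rose (34.8%) and 1 fell (4.35%), against 5.94% and 7.05% over all genes. Gja1, the main ventricular connexin, had levels of 1.55 and 1.49 in MGT cells, against -1.41 and -1.67 in LacZ cells (3.06 ± 0.20, limma adjusted p = 7.2e-10). Gja5, the atrial and conduction connexin, rose by 3.34 ± 0.36, although its 2 kept probes differed in sign. Kcnh2, a repolarising potassium channel, was at least 9.32-fold higher. Cacna1g, a T-type calcium channel, fell by 1.96, with levels of -3.81 and -3.39 in MGT cells, against -1.40 and -1.88 in LacZ cells. Of 10 desmosome and intercalated disc genes 7 rose and none fell. Dsp, which links desmosomes to filaments, had levels of 5.18 and 5.03 in MGT cells, against -0.24 and -0.68 in LacZ cells (5.57 ± 0.36). Pkp2 rose by 2.12 ± 0.27 and Dsc2 at least 3.25-fold.

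Energy genes split by kind. Of 11 isoforms that adult muscle uses, 7 rose and none fell, with a median change of 2.32. Mb, myoglobin, was at least 345-fold higher, with levels of 3.99 and 3.92 in MGT cells, against -6.33 and -5.38 in LacZ cells. Slc2a4, the insulin-responsive glucose transporter, rose by 4.22 ± 0.50, Cox8b, a muscle subunit of cytochrome oxidase, by 4.21 ± 0.21, and Fabp3, the heart fatty acid carrier, by 1.67 ± 0.31. Of 28 fatty acid oxidation genes 8 rose (28.6%) and 1 fell (3.57%). Among the risers were the regulators Esrrg, at least 4.52-fold higher, and Ppargc1a, at least 3.25-fold higher on 1 of its 2 kept probes, the other differing by 0.02. Acsl1, which activates fatty acids, rose by 1.68 ± 0.23, and the fatty acid transporter Cd36 fell by 1.47. None of 26 respiratory chain genes was called by limma in either direction, here or under the 4 other scalings, and their median change was 0.0017. Of 20 glycolysis genes, Hk2 rose (1.11 ± 0.17) and Eno1 was called lower (-1.05 ± 0.19). These shares, 5% each way, lay near those over all genes, 5.94% higher and 7.05% lower. The call on Eno1 held under none of the other scalings.

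Among 27 other cardiac transcription factors 2 rose (7.41%) and 3 were called lower (11.1%), shares near those over all genes, with none of the 3 above background on both LacZ arrays. Hopx, a small homeodomain protein of the heart, had levels of 1.12 and 1.06 in MGT cells, against -1.86 and -2.45 in LacZ cells (3.24 ± 0.50). Prdm16 was at least 13.5-fold higher. Nkx2-5, an early heart factor, had -3.69 and -3.85 in MGT cells, against -2.01 and -4.40 in LacZ cells, so the groups overlapped (-0.56 ± 0.57, limma adjusted p = 0.55). Tbx20 differed by 0.12 ± 0.18, Smyd1 by -0.24 ± 0.34 and Myocd by 0.89 ± 0.42, and none of these was called. Hand1 was called lower (-3.79 ± 0.89), but its LacZ levels were -7.01 and -2.14. Of 3 secreted peptide genes 2 were called higher and 1 lower, the latter not above background on both LacZ arrays. Nppb was at least 6.46-fold higher. Nppa, atrial natriuretic peptide, stood at 0.73 and 0.90 in MGT cells, against -0.40 and 0.00 in LacZ cells (1.01 ± 0.34, limma adjusted p = 0.034). The call on Nppa was lost after quantile normalization (limma adjusted p = 0.076), with normexp, with the authors' values, with a replicate block and without any 1 of the 4 arrays (0.059 to 0.18). Its difference had been 2.69 on day 10, and the mean level in neoCM was 8.83. Of 13 splicing regulators 3 rose (23.1%) and 1 fell (7.69%), in all 5 scalings, against 5.94% and 7.05% over all genes as scaled here. Rbm24, a muscle splicing factor, was at least 63.0-fold higher, Rbm20, which controls titin splicing, at least 5.34-fold, and Qk rose by 1.38 ± 0.27. The call on Qk was lost when all its kept probes were averaged. Esrp1, an epithelial splicing factor, fell by 1.71.

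Genes of skeletal muscle were part of the rise. Of 23 tested, 7 rose (30.4%, against 5.94% over all genes) and none fell, with a median change of 0.93. The median was 0.43 with normexp and 1.21 after quantile normalization, and both LacZ arrays measured 10 of the 23 above background. Myl1, a light chain of fast muscle, had levels of 5.44 and 5.31 in MGT cells, against -6.96 and -6.14 in LacZ cells, a rise of at least 925-fold. In neoCM its mean level was 5.47. Tnnt3, the fast troponin T, had 4.04 and 3.93 in MGT cells, against -3.65 and -3.15 in LacZ cells (7.38 ± 0.43), and -1.46 in neoCM. The fast myosin Myh1 had 3.19 and 3.21 in MGT cells, against -1.22 and -1.86 in LacZ cells (4.74 ± 0.73), and -7.51 in neoCM. The perinatal myosin Myh8 rose by 6.005 ± 0.53. The regulators of skeletal muscle fate were not called as scaled here. Myod1 differed by -0.08 ± 0.30 (limma adjusted p = 0.89) and Myog by 0.93 ± 0.30, under the 2-fold threshold. Myog was called after quantile normalization and with the percentile over probes detected on all arrays. The list's summed linear level was 120 and 111 in MGT cells, against 5.85 and 6.90 in LacZ cells.

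Fibroblast genes were lower, by less and with more dependence on scaling. Of 20 fibroblast identity genes 6 (30%) were called lower and none higher, against 7.05% lower and 5.94% higher over all genes. All 6 were above background on all 4 arrays, and the median change of the list was -0.89. Mfap5, a microfibril glycoprotein, had levels of 3.53 and 3.45 in MGT cells, against 5.81 and 5.58 in LacZ cells (-2.20 ± 0.24, limma adjusted p = 9.3e-07). Mfap4 fell by 2.15, and these 2 were the members called under all 4 other scalings. Quantile normalization gave 3 calls and a median of -0.82. Dpt, dermatopontin, fell by 3.09 (limma adjusted p = 0.044), and Pdgfra, the alpha receptor for PDGF, by 1.79 (limma adjusted p = 0.046), a call that no other scaling kept. The call on Dpt was lost under 2 of the 4 other scalings, and both calls were lost with a replicate block and without any 1 of the 4 arrays (limma adjusted p of 0.096 to 0.18 for Dpt). Tcf21 (-0.70 ± 0.82), Ddr2 (-0.58 ± 0.77), Vim (-0.42 ± 0.22) and Thy1 (1.45 ± 1.05) did not pass the test. Thy1 was called higher, however, with array weights, with only the arrays compared and with the day 0 to day 14 arrays only. It was also called higher without the iPSC2-CM D29 arrays. The summed linear level of the list was 739 to 763 in MGT cells, against 1163 to 1345 in LacZ cells. The sum over the 10 control genes was also lower in MGT cells, at 1362 to 1378, against 1758 to 2646 in LacZ cells. What part of the list's gap comes from the scaling was not tested. Of 18 collagen chains 3 fell (16.7%) and Col15a1 rose (5.56%). Col1a1 fell by 1.96, with levels of 6.53 and 6.24 in MGT cells, against 7.70 and 8.99 in LacZ cells, the higher LacZ value being that of the dim array. On day 10, within 1 slide, Col1a1 differed by -0.03 (limma adjusted p = 0.97). Col5a3 fell by 2.06 and had differed by -2.03 on day 10.

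Of 21 myofibroblast and matricellular genes 4 fell and 1 rose, with a median of -0.43. The balance depended on the scaling, with 1 lower and 2 higher and a median of 0.02 after quantile normalization, 3 and 3 with normexp, and 1 lower call held under all 4 other scalings. Tnc, tenascin, fell by 2.24. Cthrc1 had levels of 5.00 and 5.11 in MGT cells, against 3.09 and 3.26 in LacZ cells (1.88 ± 0.16, limma adjusted p = 2.9e-08). Acta2, smooth muscle actin, had levels of 8.31 and 8.23 in MGT cells, against 8.12 and 8.43 in LacZ cells, so the groups overlapped, and Postn, periostin, differed by -0.29 ± 1.00. Of 19 matrix proteases and inhibitors 6 fell (31.6%) and none rose, with a median of -1.09, and quantile normalization gave 5. Mmp9, a gelatinase, fell by 3.39, Timp3, a protease inhibitor, by 1.97 and Mmp2 by 1.60. Mmp9 had differed by only -0.49 on day 10 (limma adjusted p = 0.69). Lum, a collagen-binding proteoglycan, had 0.86 and 1.10 in MGT cells, against 5.16 and 5.16 in LacZ cells. The groups lay far apart, and the limma adjusted p was 0.048 (-4.18 ± 1.48), a call that 1 of the 4 other scalings kept.

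Over all genes 5.94% were called higher and 7.05% lower. In the Wnt list 3 of 25 genes rose (12%) and 6 were called lower (24%). Wif1, a secreted Wnt inhibitor, was at least 103-fold higher, with levels of 2.30 and 2.13 in MGT cells, against -7.01 and -5.66 in LacZ cells. Sfrp1, another secreted inhibitor, went the other way, with -3.77 and -3.14 in MGT cells, against 1.34 and 0.98 in LacZ cells (-4.62 ± 0.66, limma adjusted p = 3.6e-05). The ligand Wnt4 fell by 3.30 and Lef1, a nuclear effector, rose by 2.63 ± 0.39. In the TGF-beta and BMP list 3 of 24 rose (12.5%) and 6 fell (25%). Ltbp1, which holds latent TGF-beta in the matrix, rose by 3.71 ± 0.40, and Grem1, a BMP antagonist, by 2.46 ± 0.64. The BMP target genes Id1 (-1.95 ± 0.18) and Id3 (-1.49 ± 0.18) fell, as did the ligand Bmp4 (-1.35 ± 0.17). In the Notch list 2 of 13 rose (15.4%) and 4 were called lower (30.8%). The receptor Notch3 had 0.11 and 0.05 in MGT cells, against 2.29 and 2.01 in LacZ cells (-2.07 ± 0.14), and the ligand Jag1 fell by 1.67. Of 13 imprinted growth genes 5 fell (38.5%) and none rose, all 5 in each of the 5 scalings, while quantile normalization also called 1 higher. Dlk1, a Notch-like protein of immature cells, had -4.30 and -4.70 in MGT cells, against 0.40 and -0.11 in LacZ cells (-4.64 ± 0.60). H19 fell by 2.12 and Plagl1 by 1.70, a call that was lost when all kept probes of Plagl1 were averaged. Igfbp3, an IGF-binding protein, had 0.05 and 0.03 in MGT cells, against 4.64 and 4.31 in LacZ cells (-4.43 ± 0.96), while Igfbp5 rose by 1.81 ± 0.13.

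None of 30 cell cycle genes was called by limma in either direction under any of the 5 scalings, and their median change was -0.29. Mki67, a marker of dividing cells, had levels of 3.44 and 3.68 in MGT cells, against 3.83 and 3.88 in LacZ cells. Of 26 interferon response genes 1 rose (3.85%) and none fell at day 14, with a median of 0.29. Over all genes 5.94% were called higher and 7.05% lower that day. On day 5 the interferon list had 13 genes called lower and a median of -1.38, when 3.46% of all genes were called lower. Of 25 chemokines and cytokines 1 rose (4%) and 4 were called lower (16%) at day 14. Cxcl5, a neutrophil attractant, fell by 2.66 and the alarmin Il33 by 2.89.

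Lists of other cell types differed in their share of calls, against 5.94% higher and 7.05% lower over all genes. None of 21 macrophage genes was called by limma in any of the 5 scalings, with a summed linear level of 463 to 510 in MGT cells, against 576 to 808 in LacZ cells. The sum over the control genes was lower in MGT cells too, at 1362 to 1378, against 1758 to 2646. Cd68 differed by -0.70 ± 0.60, and the only macrophage gene above background on none of the 4 arrays was Cd163. Of 17 endothelial genes 4 fell (23.5%) and none rose, and the summed level was 27.7 to 29.2 in MGT cells, against 32.3 to 36.7 in LacZ cells. Cldn5, a tight junction protein of vessels, was at least 20.9-fold lower and Robo4 fell by 2.86. Pecam1 differed by -0.05 ± 0.30. Of 12 smooth muscle and pericyte genes 1 rose and 2 were called lower. The pericyte genes Cspg4 and Rgs5 moved oppositely, by 2.51 ± 0.26 and -3.05 ± 0.58. Of 11 epicardial and mesothelial genes 4 rose (36.4%) and 2 fell (18.2%). Krt19, an epithelial keratin, rose by 1.59 ± 0.30 and Wt1, an epicardial factor, fell by 1.66. No adipocyte gene of 8 was called as scaled here. Quantile normalization called 1. Calls in the lymphocyte (2 of 8 lower), granulocyte (2 of 8) and MHC class II (1 of 7) lists included Cd3g, Retnlg and H2-Aa, which were above background on none of the 4 arrays. Calls in the glia and neuron list were 1 higher and 3 lower of 9. How far shifts in these cell types enter the results above was not tested.

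**Figure D3:**
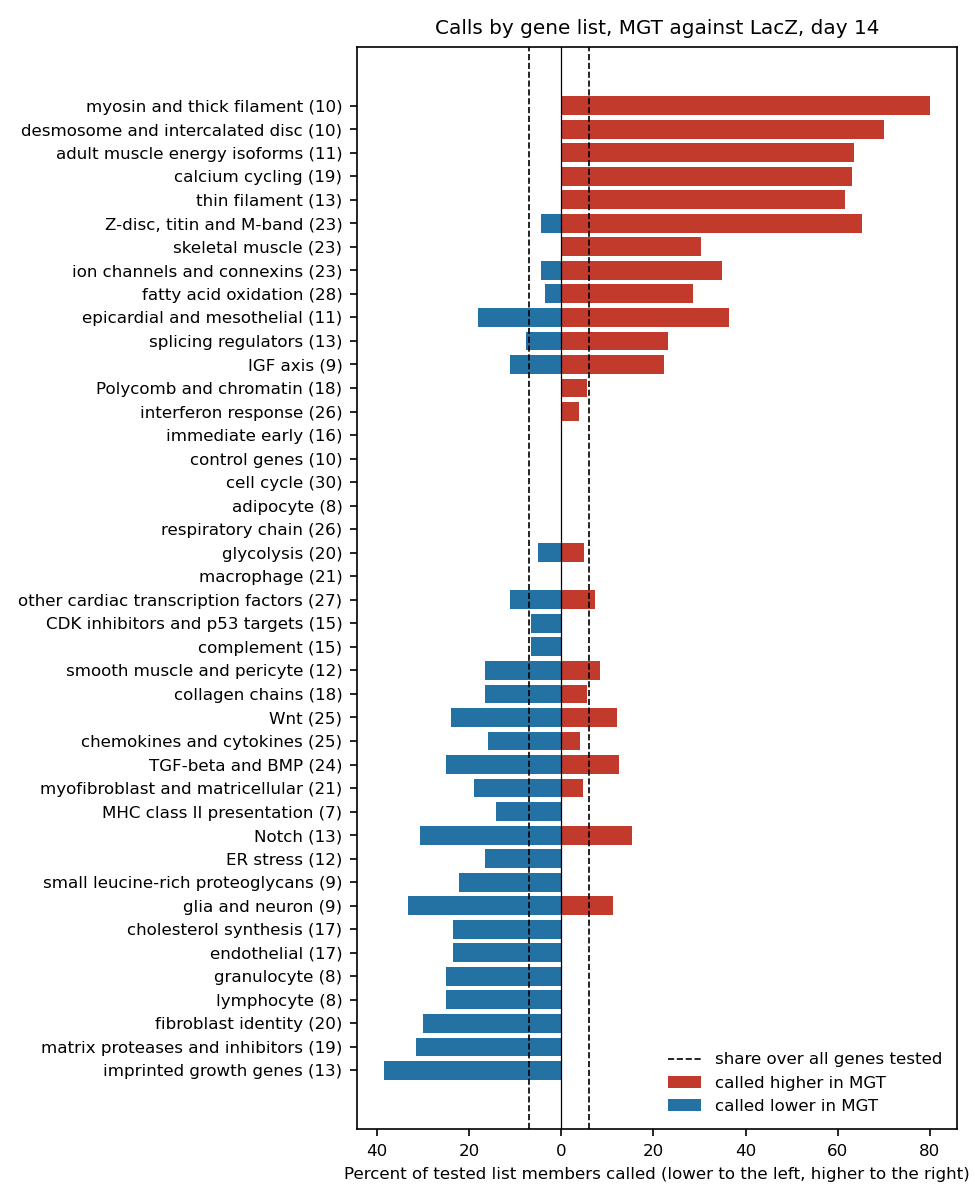
Percent of the tested members of each gene list (number tested in brackets) called higher in MGT cells (red, to the right) or lower (blue, to the left) at day 14, for lists with at least 7 members tested. Dashed lines mark the shares over all genes tested, 5.94% higher and 7.05% lower. The muscle lists lie at the top and the imprinted, matrix protease and fibroblast lists at the bottom.

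The largest falls among genes above background on both LacZ arrays were of 2 kinds. Dlk1, Sfrp1, Igfbp3 and the neuropeptide precursor Nts were lower on day 10 as well, by 5.18, 3.91, 3.36 and 4.61 in the comparison within 1 slide (limma adjusted p of 0.021 or less). Nts itself had -5.06 and -5.97 in MGT cells, against -0.67 and -1.24 in LacZ cells at day 14 (-4.56 ± 0.42). Galntl5, Ush1c, Albfm1 and Gsg1l2 were called on day 14 and not on day 10. Galntl5 had levels of -8.68 and -8.50 in MGT cells, against -2.23 and -2.35 in LacZ cells, and was at least 19.3-fold lower, with a difference of -0.52 on day 10 (limma adjusted p = 0.70). On day 10 it had -6.93 and -7.50 in MGT cells, against -6.29 and -7.11 in LacZ cells. Albfm1 had -4.16 and -0.97 on the LacZ arrays of day 14, which are far apart, and -8.62 and -8.43 on the MGT arrays. None of these 4 genes was above background on either MGT array of day 14, and the part that the slide plays was not tested.

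Across days, the day 14 rises were mostly in place by day 10, which was tested on other arrays. Of the 1153 higher genes, 852 (73.9%) were also called higher on day 10, which is 82.5% of that day's 1033 higher calls. On day 10, 8.63% of all genes were called, 5.32% higher and 3.31% lower. None of the 1153 was called lower on day 10. Going back, 769 were called higher on day 7, 645 on day 5 and 451 on day 3. The background was 8.78% called on day 7 (5.27% higher and 3.51% lower), 8.3% on day 5 (4.84% and 3.46%) and 5.08% on day 3 (3.22% and 1.87%). Of the 768 lower genes above background on both LacZ arrays, 364 (47.4%) were called lower on day 10 and 86 on day 3. The median change of the 1153 genes was 1.91 on day 14 and 1.83 on day 10.

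**Figure D4:**
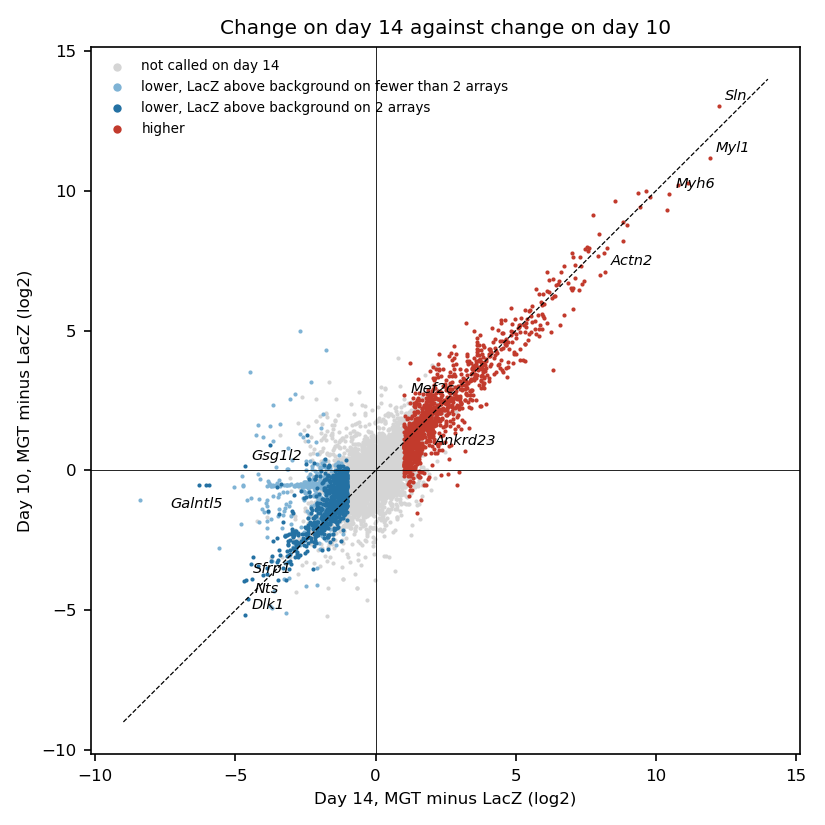
Change on day 14 (horizontal axis) against change on day 10 (vertical axis), both MGT minus LacZ on the log2 scale, 1 point a gene, coloured by the day 14 call. The dashed line marks equal change. Red points follow the line, and many pale blue points, with fewer than 2 LacZ arrays above background, lie near 0 on day 10, as do Galntl5 and Gsg1l2.

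A test of the difference between days gave 6 genes with a higher and 23 with a lower MGT effect on day 14 than on day 10 (0.149% called, 0.0309% higher and 0.118% lower). Of these 29, 7 were above background on all 8 arrays. Ankrd23, a titin-associated repeat protein, was one of them. It had 1.14 and 1.12 in MGT cells, against -2.04 and -1.99 in LacZ cells, on day 14, and -0.04 and -0.16 in MGT cells, against -1.83 and -1.86 in LacZ cells, on day 10. The effect was thus larger by 1.40 ± 0.16 on day 14 (limma adjusted p = 0.00054). Grin2c, a glutamate receptor subunit, went the other way, with an effect of 1.24 on day 14 and 3.83 on day 10 (-2.59 ± 0.40, limma adjusted p = 0.0074). Ankrd23 and Grin2c were singled out after their values were seen. No gene was called in this test when only the 8 arrays compared were fitted, where 1583 genes had an unadjusted p under 0.05.

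From day 3 to day 14 the effect became higher for 440 genes and lower for 428 (4.47% called, 2.27% higher and 2.21% lower). Of the 440, 324 were called higher on day 14, and of the 428, 270 were above background on both LacZ arrays of day 14. Myh6, on its brightest probe, led the list. It stood at 2.66 and 2.45 in MGT cells, against 2.39 and 2.42 in LacZ cells, on day 3, a difference of 0.15. With the values of day 14 above, the effect grew by 10.32 ± 0.39 (limma adjusted p = 3.4e-12). Both sides moved, since MGT cells stood higher and LacZ cells lower on day 14 than on day 3. Actc1 had 7.14 and 7.15 in MGT cells, against 2.97 and 2.93 in LacZ cells, on day 3, so that most of the growth in its gap lay in the lower LacZ level of day 14. Actn2 differed by 1.17 on day 3, and its fitted effect grew by 7.02 ± 0.99. The size of that growth rests on day 14 LacZ levels that neither array measured above background. Sln, by contrast, was 6.70 higher on day 3 already. Its fitted change on day 5 was 12.74, but its LacZ levels then were -5.51 and -6.38. These lay below the lowest signals above background on those arrays, -4.62 and -4.05. The effect on Mef2c shrank by 4.50 ± 0.65 between the same days (limma adjusted p = 0.00024). Its level in MGT cells was 3.09 and 3.20 on day 3. In the thick filament list the median change was 0.55 on day 3, 3.95 on day 5, 4.96 on day 7, 5.09 on day 10 and 5.52 on day 14.

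**Figure D5:**
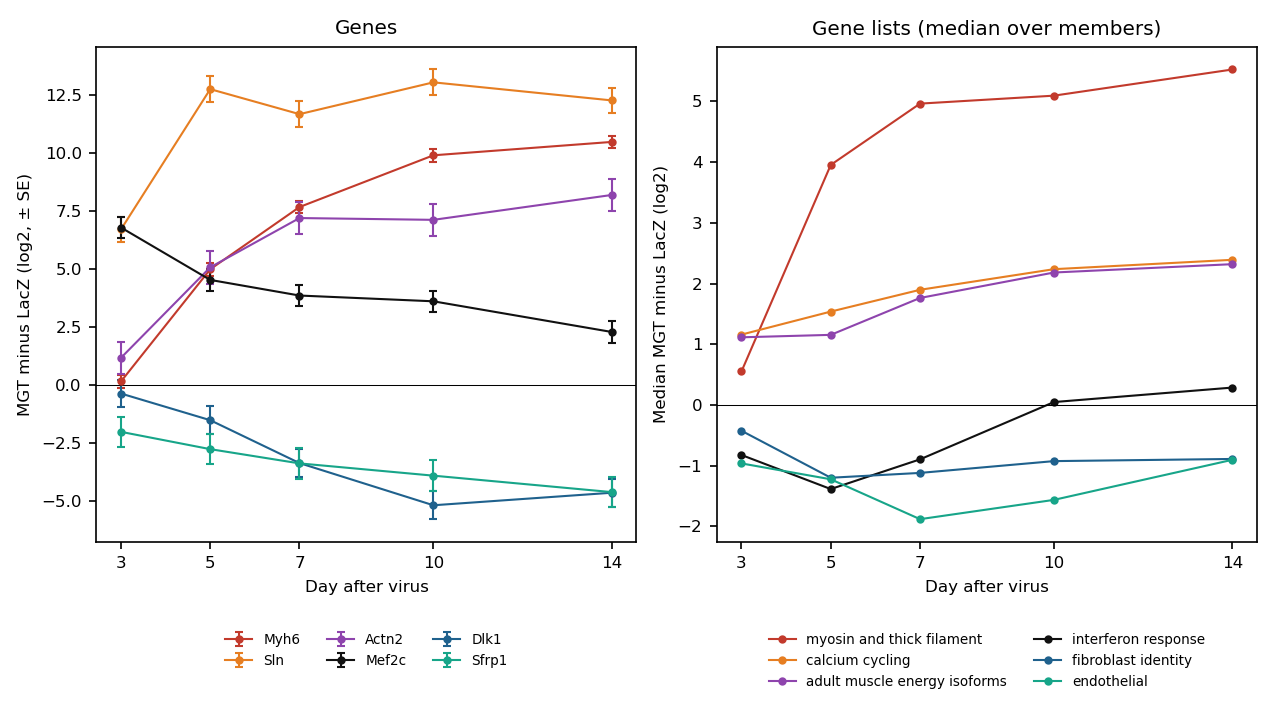
Left, fitted change in MGT minus LacZ (log2, bars are ± SE of the fit, 2 arrays a group) by day after virus for 6 genes. Fitted values are drawn also where LacZ arrays were not above background, as for Actn2 on day 14. Right, median change over the members of 6 gene lists. Myh6 climbs from 0.15 on day 3 to 10.47 on day 14 while Mef2c declines, and the interferon list returns from a median of -1.38 on day 5 to 0.29.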

How the data were processed

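RNA from 34 samples (17 groups of 2) was hybridised to single-colour Agilent 8x60K arrays. The deposited scanner files hold fluorescence intensity per spot, and per the file headers the scanner software (Agilent Feature Extraction, version 10.7.3.1, build mm9) had subtracted background and detrended them. The deposited table of log2 values names limma without a version, per the submitters' processing notes, and served as an alternative. Its column medians lay between 7.49 and 7.52, and its scaling steps are not given in the sources used here. A level is log2 of the processed intensity minus the 75th percentile of the array, with outlier spots left out and spots of a probe averaged. Probes were named through RefSeq (GRCm38.p6, for names only): an accession named 26165 of 55681 probes, a current symbol 3128 and an outdated symbol 910, and 25478 had no name. Kept probes were those that both arrays of some group measured well above background, and the brightest kept probe stood for its gene, giving 19410 genes, 5121 of them with several kept probes. Arrays give no counts, so the number of arrays limits the precision.

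All 34 arrays entered 1 limma fit with a mean for each group (limma 3.58.1, R 4.3.3), which shares 1 estimate of spread over groups. Where a fit met a missing value (187 genes), that array was dropped for the gene. P-values were adjusted by Benjamini-Hochberg over all genes. A lower bound takes, for each array of the dim side, the higher of the gene's signal and the lowest signal well above background. In simulated data with 200 changed genes of 19410, the day 14 comparison recovered 69% of changes of 1.5 and 95% of changes of 3 on the log2 scale, with 3 false calls. The simulated noise was independent, of equal spread on all arrays and without a slide effect. The real LacZ arrays of day 14 were more variable and lay on their own slide, so these rates say nothing about false calls there. Genes named are the 10 largest rises and falls among called genes with an established symbol, the largest in each of 44 gene lists, the delivered factors, markers and the largest changes between days, and the text names fewer. The members and lists were chosen with earlier results of these data known. Alternatives covered scaling, filter, probe choice, arrays fitted, weights, blocks and each array left out. Tables and figures were made in Python 3.11.15. Some list members are counted in their list but not reported singly here.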

Additional observations from a re-analysis of the deposited data

Results flagged for a closer look

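The effect of MGT differed between days for several results. Between day 10 and day 14 it was higher for 6 genes and lower for 23. On its brightest probe Ankrd23 had an effect larger by 1.398 (log2) on day 14, and Grin2c had one smaller (-2.592). Between day 3 and day 14 it was higher for 440 genes and lower for 428, led by the brightest probe of Myh6 at 10.32. No group had enough arrays for a check on outlying samples. Outside the named genes, 17731 kept probes had no gene name here. Of these, 998 were called higher and 1408 lower in MGT cells at day 14, and they enter no other result. Over all 43371 kept probes, named or not, 2505 were called higher and 3129 lower, which are similar shares.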

How the results depend on the processing

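The count of higher genes on day 14 held within 1.5 times of 1153 under every alternative run except a test against a 2-fold change, which gave 448. The count of lower genes was less stable. It was 758 after quantile normalization, 627 with normexp, 770 with the authors' log2 values, 3529 without a filter on dim probes, 807 with the filter on the compared groups, 797 with only the arrays compared and 185 in the test against 2-fold. Leaving out 1 array at a time gave 918 to 1167 higher and 789 to 1819 lower genes, the smallest lower count being that without LacZ replicate 2 and the largest that without LacZ replicate 1.

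For the change from day 10 to day 14, the genes with a higher effect numbered 12 after quantile normalization, 49 with the day 0 to day 14 arrays only, 0 with only the arrays compared, 2 with array weights, 0 against 2-fold and 11 with slide as a random block. Those with a lower effect numbered 15 with normexp, 11 with the authors' values, 43 without the filter, 87 with the day 0 to day 14 arrays only, 0 with only the arrays compared and 3 against 2-fold. With 1 array left out the counts ran from 4 to 111 and from 11 to 448, both highest without LacZ replicate 1 of day 14. For the change from day 3, the higher count was 929 with the day 0 to day 14 arrays only, 803 with only the arrays compared, 803 with array weights and 86 against 2-fold. The lower count was 217 after quantile normalization, 249 with normexp, 280 with the authors' values, 1686 without the filter, 1026 with the day 0 to day 14 arrays only, 827 with only the arrays compared, 931 with array weights and 32 against 2-fold. With 1 array left out these ran from 284 to 593 and from 200 to 1033. Both iPSC2-CM D29 arrays were also left out, chosen after seeing the data because those replicates differed most. This gave 1338 higher and 1807 lower genes on day 14. It gave 31 and 64 for the change from day 10 and 885 and 977 for that from day 3. The causes were not tested.

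Replicate numbers did not pair the samples (correlations of same-numbered deviations from -0.033 to 0.136 over the 5 days). A replicate block gave 1059 higher and 1211 lower genes on day 14, 4 and 10 for the change from day 10, and 324 and 299 for that from day 3. Among named genes, H2-Aa, above background on none of the 4 arrays, turned to 0.052 with normexp and 0.14 with the authors' values. Leaving out LacZ replicate 2 ended the calls on Eno1, Hand1, Grem1 and Grin2c, among others. With 1 array left out, the lone array is assumed to vary like the other groups. Signal over background limits the falls, since 601 of the 1369 lower genes were above background on fewer than both LacZ arrays.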
